A study of Saccharomyces cerevisiae with 6 samples.

Results

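The hexose transporter (HXT) genes of budding yeast encode the plasma membrane proteins that bring glucose and related sugars into the cell. The 10 genes examined here, HXT1 to HXT7, HXT9, HXT10 and HXT11, were taken as a named list from the 6002 nuclear protein-coding genes of the RefSeq R64 gene table. A gene was counted as having a peak when the summit of a CUT&RUN peak lay within 1000 bp upstream of its annotated start. These gene models hold coding sequence, so distances run from the start codon and not from the start of transcription.

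The peaks came from yeast grown in rich glucose medium (YPD) at 30 °C, with nuclei treated with an anti-c-Myc antibody that directs a nuclease to the tagged factor. The strain labelled YRP10 gave 2 Pdr1 libraries, replicates 1 and 2, and the strain labelled Pdr3_3xmyc gave 1 Pdr3 library. The labels name neither the tag carried by YRP10 nor whether the Pdr1 replicates are separate cultures. The 3 IgG control libraries were not analysed here, so no control value stands beside any peak below.

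Pdr1 and Pdr3 are zinc-cluster activators of pleiotropic drug resistance genes such as the exporter gene PDR5. HXT9 and HXT11 are the hexose transporter genes known to be under the control of these factors, and loss of HXT9 or HXT11 raises resistance to several drugs. The main glucose transporters are governed instead by glucose: the membrane sensors Snf3 and Rgt2 signal through Mth1 and Std1 to the repressor Rgt1, and the repressor Mig1 acts on some of the genes when glucose is plentiful. HXT1 and HXT3 encode low-affinity transporters, HXT2 and HXT4 transporters of higher affinity made when glucose is scarce, and HXT6 and HXT7 near-identical high-affinity transporters. HXT5 is known for its expression in slowly growing cells, and HXT10 is little expressed in glucose medium.

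Pdr1 peaks stood upstream of most of the 10 genes, including the main glucose transporters. In replicate 1, 9 of the 10 genes had a summit upstream, where 15.5% of all protein-coding genes had one. In replicate 2 the count was 7 of 10, against 10.2% of all genes. The 7 genes of replicate 2 (HXT9, HXT1, HXT2, HXT3, HXT4, HXT5 and HXT7) all had a summit in replicate 1 as well, and 8.95% of all genes had a summit of both replicates. HXT11 and HXT6 had a peak in replicate 1 only, and HXT10 had none. In the Pdr3 list, which holds 7 peaks, 0 of the 10 genes had a summit, and 0.167% of all genes had one. With 1 Pdr3 library and 2 Pdr1 libraries no test between the factors was possible, and genes are not replicates, so these shares are descriptions.

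**Figure D1:**
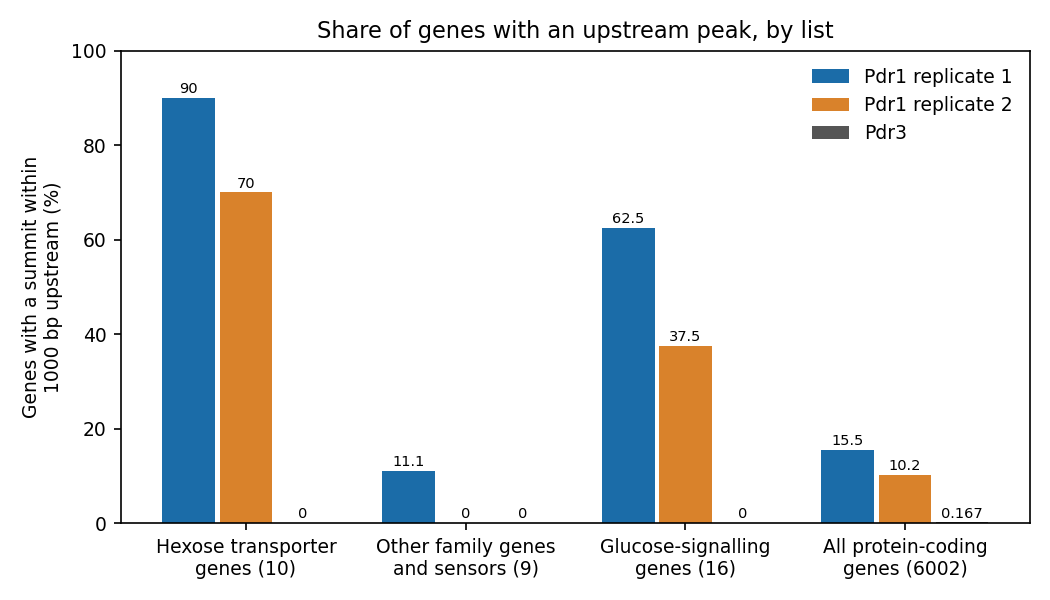
Share of genes (%) with a peak summit within 1000 bp upstream, for the hexose transporter genes, other family genes and sensors, glucose-signalling genes and all protein-coding genes. The bars give the Pdr1 replicate 1, Pdr1 replicate 2 and Pdr3 lists. The hexose transporter genes stand at 90% and 70% in the Pdr1 lists, and all genes at 15.5% and 10.2%.

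The space upstream of the genes was also measured. The median distance from the start to the next protein-coding gene upstream was 1114.5 bp for the 10 genes (range 330 to 3679 bp) and 448 bp over all genes with an upstream neighbour. Of the 886 genes with at least 1000 bp of such space, 29.5% had a summit in replicate 1 and 24% in replicate 2. Among the 5 hexose transporter genes in that class (HXT1, HXT2, HXT3, HXT7 and HXT10), 4 had a summit in each replicate. The part that space plays in the counts was not tested.

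HXT9 and HXT11 are described first. HXT9 (YJL219W) lies on chromosome X from 19497 to 21200, near the left end of the chromosome, on the plus strand. Its replicate 1 peak spanned 18835 to 19124, with the summit at base 19022, 475 bp upstream of the start. The fold enrichment, a linear ratio as the authors' peak caller gave it, was 7.68 in replicate 1, rank 128 of 792 peaks. In replicate 2 the peak spanned 18926 to 19078, its summit lay 510 bp upstream and its fold enrichment was 5.92, rank 121 of 485. The HXT9 peak was therefore placed by both replicates in the same stretch, with summits 35 bp apart. By −log10 q the same peak stood at rank 80 in replicate 1 (51.3) and at rank 256 in replicate 2 (14.3).

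HXT11 (YOL156W) lies on chromosome XV from 25273 to 26976, also near a left chromosome end. Its replicate 1 peak spanned 24666 to 24889, with the summit 483 bp upstream, a fold enrichment of 8.89 (rank 76) and a −log10 q of 46.1 (rank 99). Replicate 2 listed no peak there. Its closest summit to the HXT11 start lay 2438 bp away on the downstream side.

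HXT9 and HXT11 are near-identical copies, and other family members resemble them. Each has an isomaltase gene on its upstream side, read in the opposite direction: IMA4 beside HXT9 and IMA2 beside HXT11, separated from the transporter by 960 and 978 bp. Isomaltases split the disaccharide isomaltose into glucose. The replicate 1 summits lay 486 bp from the IMA4 start and 496 bp from the IMA2 start, so each peak is upstream of both genes of its pair.

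The same layout occurs at HXT8 with IMA5 and at the pseudogene HXT12 with IMA3, which were singled out after their values were seen. The HXT8 summit of replicate 1 lay 474 bp upstream of HXT8, with a fold enrichment of 8.30 (rank 95). At HXT12 the summit lay 477 bp upstream of YIL171W, an adjoining pseudogene fragment on the same strand, and 809 bp upstream of the HXT12 model itself, with a fold enrichment of 7.09 (rank 161). The replicate 1 summits at these 4 loci thus fell between 474 and 483 bp from the first annotated base, and their fold enrichments between 7.09 and 8.89. In replicate 2 only the HXT9 copy had a listed peak. How reads that match several copies were assigned is not stated, and sequence was not compared here, so the 4 loci may not be independent measurements.

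**Figure D2:**
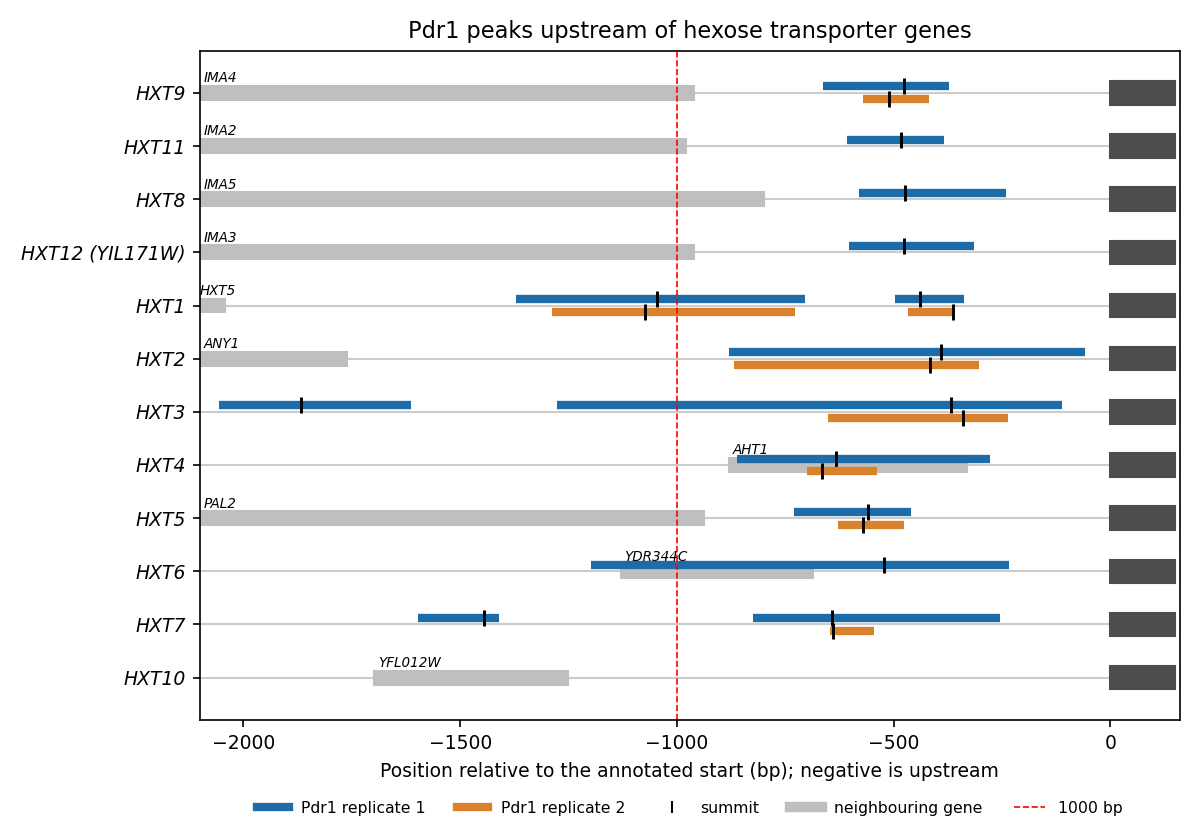
Pdr1 peaks upstream of the hexose transporter genes, with HXT8 and HXT12 added, by position relative to the annotated start (bp, negative is upstream). Bars are peaks of replicates 1 and 2, black ticks are summits, grey blocks are the neighbouring genes and the dashed line is the 1000 bp limit. The HXT12 row is drawn from the start of the adjoining fragment YIL171W, not of the HXT12 model. Summits at HXT9, HXT11, HXT8 and YIL171W lie 474 to 510 bp upstream, and those at HXT1 to HXT7 lie 341 to 666 bp upstream within the limit.

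HXT3 (YDR345C, chromosome IV, 1162957 to 1164660, minus strand), a low-affinity glucose transporter gene, had the strongest peak of the 10 genes in both replicates. In replicate 1 the peak spanned 1164772 to 1165937, 1166 bp, rank 12 of 792 by width. Its summit was 367 bp upstream and its fold enrichment was 11.1, rank 38. In replicate 2 it spanned 1164896 to 1165312, with the summit 341 bp upstream and a fold enrichment of 9.85, rank 16. The HXT3 peak stood higher still by −log10 q, at rank 10 in replicate 1 (174) and rank 11 in replicate 2 (78.6). For comparison, PDR5 had fold enrichments of 12.8 (rank 26) and 23.1 (rank 3) in replicates 1 and 2. The −log10 q values of PDR5 were 325 (rank 2) and 224 (rank 1). A second replicate 1 peak, 6.91-fold, lay 1866 bp upstream of HXT3 in the space before SVF1, and replicate 2 listed none within 2000 bp besides the main one.

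HXT1 (YHR094C, chromosome VIII, 290913 to 292625, minus strand), the other low-affinity transporter gene, had the weakest peak of the 9 genes with one. Its peak within the window had a fold enrichment of 2.86 in replicate 1 (439 bp upstream, rank 745) and 2.88 in replicate 2 (363 bp upstream, rank 463). A stronger peak lay just outside the limit in both replicates. Its summits were 1047 and 1073 bp upstream of the HXT1 start, and its fold enrichments were 6.22 (rank 225) and 6.20 (rank 98). That peak sat in the 2043 bp between HXT1 and HXT5, which is read in the same direction, so it lies within 1000 bp of no other start in the gene table. With the limit at 1500 bp, HXT1 therefore took values near those of HXT4 and HXT6 in replicate 1.

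HXT2 (YMR011W, chromosome XIII, 288079 to 289704) had a broad peak in both replicates, 822 bp wide in replicate 1 and 567 bp in replicate 2. Its summits lay 390 and 415 bp upstream, in the space before ANY1, and its fold enrichments were 4.95 (rank 386) and 3.88 (rank 376). Its −log10 q values, 41.1 and 18.9, ranked it higher, at 131 and 165. HXT4 (YHR092C, chromosome VIII, 287081 to 288811) had summits 634 and 666 bp upstream, with fold enrichments of 6.37 (rank 214) and 2.91 (rank 461). Both HXT4 summits fell inside AHT1, an annotated gene on the opposite strand that starts 330 bp upstream of HXT4 in the space before HXT1. When the window was ended at the neighbouring gene, HXT4 had no summit.

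HXT5 (YHR096C, chromosome VIII, 294669 to 296447) had summits 559 and 570 bp upstream, between HXT5 and PAL2, with fold enrichments of 5.97 (rank 256) and 4.03 (rank 354). In replicate 2, 3 other peaks carried exactly the same fold enrichment and −log10 q as the HXT5 peak, and 26.4% of all replicate 2 peaks shared both values with another peak (14.9% in replicate 1). Peaks that share both values hold the same rank.

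The neighbouring copies HXT7 and HXT6 lie on chromosome IV, 1154216 to 1155928 (YDR342C) and 1159608 to 1161320 (YDR343C), on the minus strand. HXT7 had a replicate 1 peak of 10.3-fold, rank 46, with its summit 642 bp upstream, and a replicate 2 peak of 4.29-fold, rank 304, with its summit 640 bp upstream. The replicate 2 peak was 101 bp wide and stood near the bottom of its list by −log10 q (6.51, rank 461 of 485). HXT6 had a replicate 1 peak of 6.23-fold, rank 224, with its summit 523 bp upstream, which reached into the small gene YDR344C. No replicate 2 peak was listed at HXT6, and the closest summit was that of HXT3, 3681 bp away. As with HXT9 and HXT11, reads from these copies may not be told apart.

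HXT10 (YFL011W, chromosome VI, 112345 to 113985) had no peak in any list. Its closest summits lay beyond YFL012W, 5815 bp upstream in replicate 1 and 5856 bp upstream in replicate 2. No list had a summit inside the coding sequence of any of the 10 genes. The same held for the other protein-coding family genes and sensors. The share over all genes was not computed, so this count is a description only.

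**Figure D3:**
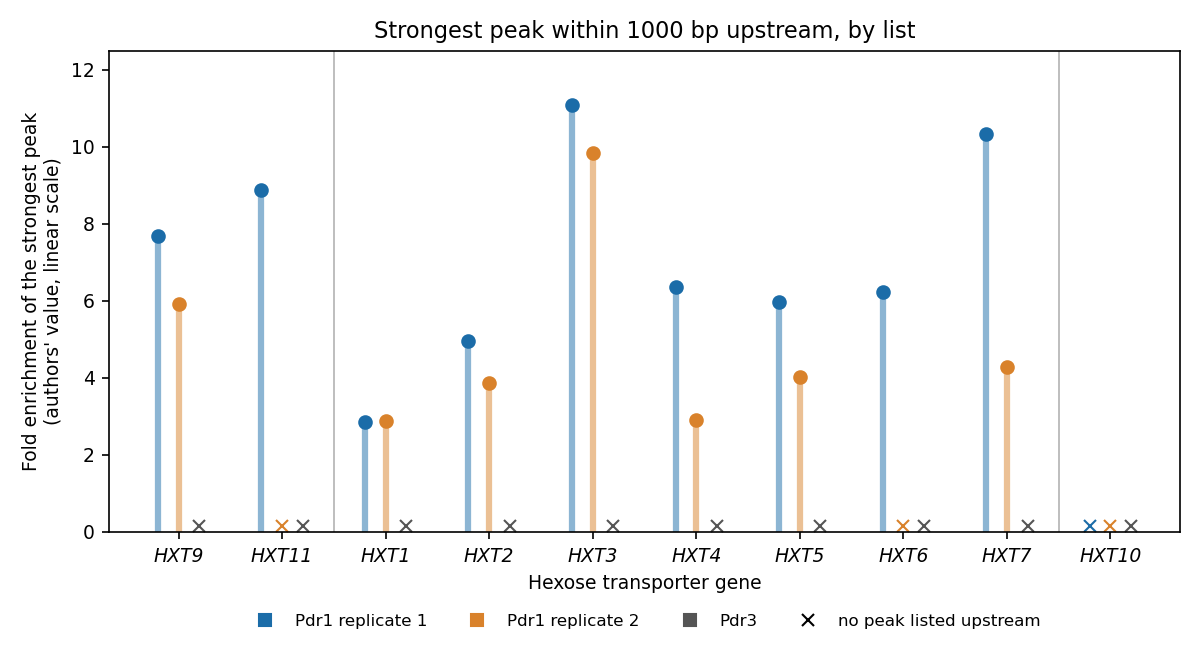
Fold enrichment (authors' value, linear axis from 0) of the strongest peak within 1000 bp upstream of each hexose transporter gene. Points are the Pdr1 replicate 1 and replicate 2 lists, and crosses mark lists with no peak. HXT3 is highest in both Pdr1 lists (11.1 and 9.85), HXT1 is lowest (2.86 and 2.88), and the Pdr3 list has no peak at any of the 10 genes.

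Set against HXT1 to HXT7, the listed peaks of HXT9 (both Pdr1 lists) and HXT11 (replicate 1) were within the range of the main transporters. In replicate 1 their median fold enrichment was 8.28, and that of HXT1 to HXT7 was 6.23 (range 2.86 to 11.1). HXT11 and HXT9 held positions 3 and 4 of the 9 genes, below HXT3 and HXT7 and above the other 5. In replicate 2 HXT9 had 5.92, and the 6 main transporter genes with a peak had a median of 3.96 (range 2.88 to 9.85). HXT9 was again below HXT3 and above the other 5 there, HXT7 included. That position depended on the 1000 bp limit: with 1500 bp, HXT1 took 6.20 in replicate 2 and stood above HXT9. By −log10 q, HXT9 was exceeded by HXT3 in replicate 1 and by HXT3 and HXT2 in replicate 2, while 3 main transporter genes exceeded HXT11 in replicate 1. No test was made, since the genes are few, some are copies of each other, and each list is 1 library.

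The position of the peaks, which the list of genes did not fix beyond the 1000 bp limit, is described next. The strongest summits lay 367 to 642 bp upstream in replicate 1 (median 483 bp, against 382 bp for all 931 genes with a summit) and 341 to 666 bp in replicate 2 (median 510 bp, against 421 bp for 613 genes). In replicate 1 the peaks of HXT11 and HXT9 were 224 and 290 bp wide, and those of HXT1 to HXT7 had a median width of 586 bp. HXT1, at 159 bp, and HXT5, at 271 bp, had peaks narrower than that of HXT9. In replicate 2 the HXT9 peak was 153 bp wide and the median for the main transporters was 156.5 bp.

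The replicates were compared at the 7 genes with a peak in both. All 7 replicate 2 peaks lay wholly inside the replicate 1 peak. The share of genes with such peaks was not computed over all genes. Over the whole lists the median peak width was 257 bp in replicate 1 and 230 bp in replicate 2. The summits of the 7 genes were 2 to 76 bp apart (median 26 bp), and over all 537 genes with a summit of both replicates the median was 30 bp. The order of the genes by fold enrichment was the same in both lists for 18 of 21 pairs of genes, a count not made for other genes. The exceptions were HXT9 with HXT7, HXT4 with HXT5 and HXT4 with HXT2; for these pairs the order differed between the 2 libraries.

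**Figure D4:**
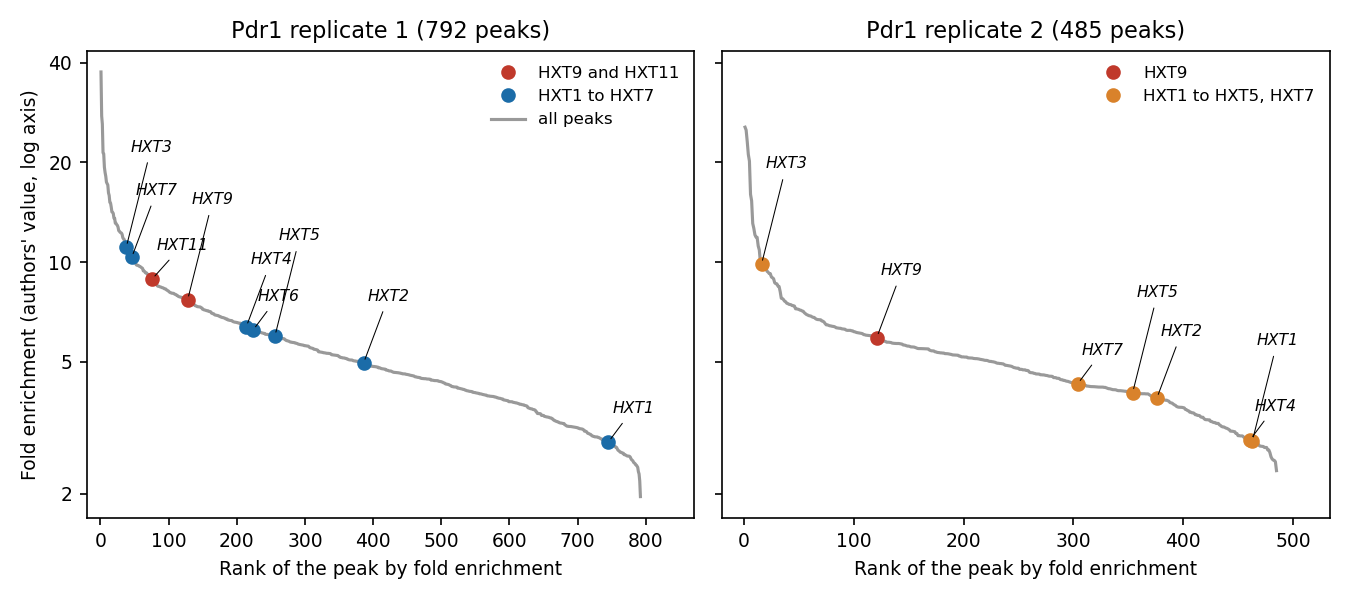
Fold enrichment (log axis) against rank for all peaks of the 2 Pdr1 lists, with the strongest upstream peak of each hexose transporter gene marked. HXT3 is near the top of both lists (ranks 38 and 16), HXT9 stands at ranks 128 and 121, and HXT1 and HXT4 are at the bottom of the replicate 2 list (ranks 463 and 461).

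The counts depended on the window and on the peak threshold. Within 500 bp, 5 of the 10 genes had a summit in replicate 1 (10.8% of all genes), 3 in replicate 2 (6.48%) and 3 in both (5.28%). HXT9, HXT11, HXT1, HXT2 and HXT3 were the 5 in replicate 1, and HXT1, HXT2 and HXT3 the 3 in replicate 2. With a −log10 q of at least 10, 9 genes remained in replicate 1 (12.3% of all genes), 4 in replicate 2 (8.18%) and 4 in both (6.63%), and replicate 2 lost HXT1, HXT4 and HXT7. With windows that ended at the neighbouring gene, 8, 6 and 6 genes had one, against 13.4%, 8.83% and 7.56% of all genes.

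Among 10 further family genes and sensors, the 9 that are protein-coding were HXT8, HXT13 to HXT17, the galactose transporter gene GAL2 and the sensor genes SNF3 and RGT2. Of these 9, 1 (HXT8, 11.1%) had a summit in replicate 1, against 15.5% of all genes, and 0 had one in replicate 2, against 10.2%, or in the Pdr3 list, against 0.167%. With 9 genes these shares are near those over all genes.

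Of 16 genes of glucose signalling and sugar phosphorylation, 10 (62.5%) had a summit in replicate 1, against 15.5% of all genes. In replicate 2, 6 (37.5%) had one, against 10.2%, and the same 6 had a summit of both replicates, against 8.95%. The Pdr3 list had 0, against 0.167% of all genes. MIG2, which encodes a glucose-induced repressor related to Mig1, had the strongest, at 17.3-fold (rank 10) in replicate 1 and 6.03-fold (rank 110) in replicate 2, with the summit at the same base 320 bp upstream. HXK2, the main hexokinase gene, had 9.41-fold and 4.86-fold, both 413 bp upstream. STD1 and MTH1, whose products act with Rgt1, had 6.80-fold and 4.03-fold (STD1) and 4.20-fold and 2.99-fold (MTH1) in replicates 1 and 2. The glucokinase gene GLK1 had 3.25-fold and 3.83-fold, and CYC8, which encodes a subunit of the Cyc8-Tup1 corepressor, 3.53-fold and 6.01-fold. The repressor gene RGT1 had no summit within 1000 bp upstream in any list. The replicate 1 GLK1 summit fell inside the annotated gene YCL042W, and the stronger replicate 1 MIG1 summit inside YGL034C. The upstream space of these 16 genes was not compared with that of all genes. The fold enrichments of HXT3 were above those of HXK2, STD1, MTH1, GLK1 and CYC8 in both lists, and relative to MIG2 were lower in replicate 1 and higher in replicate 2.

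The genes whose pair of fold enrichments was nearest to that of HXT9, by distance on the log2 scale over the 2 Pdr1 libraries, were IMA4, which shares the peak, RAD16 (7.65 and 6.01) and NRG1 (7.85 and 6.16). RAD16 acts in nucleotide excision repair, and NRG1 encodes a repressor of glucose-repressed genes. In replicate 2 the RAD16 value equalled that of CYC8, whose replicate 1 value was 3.53. Each value is that of the strongest upstream peak in its list, and whether a pair came from the same site was not examined.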

How the data were processed

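CUT&RUN peak lists of 3 c-Myc libraries were used, grouped by sample title. The submitters' processing notes name Trimmomatic 0.33, Bowtie2, Picard, deepTools and MACS2 2.1.1 and the builds R64 and sacCer3, without roles or settings. No source used here gives the use of IgG and spike-in reads or the q threshold. The lists have no header, so columns were read in narrowPeak order. The deposited signal value was read as a fold enrichment, a linear ratio whose reference is not stated. The deposited −log10 q-value ranked and filtered peaks, and the −log10 p-value was not used. Other columns were positions, given counted from 1. The lists held 792, 485 and 7 peaks. They hold no read counts, so depth is unknown and no counting interval was computed.

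Genes came from the RefSeq R64 table, with strand from the systematic name. Summits 1 to 1000 bp upstream were assigned with Python 3.11.15 and pandas 2.3.3, and the fold of a gene was that of its strongest peak. The assignment was checked with 200 planted summits, of which 200 were placed as planted. All 10 members, their upstream neighbours, listed genes with a summit of both Pdr1 replicates and the 3 genes nearest to HXT9 are named. The members, lists and settings were chosen with earlier results of these data known. The planned response element search needs a genome sequence, which was not used here, and was not run.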

Additional observations from a re-analysis of the deposited data

How the results depend on the processing

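The whole space up to the neighbouring gene was a setting added after the data were seen. The counts of genes with a summit, over 1000 bp upstream, stayed within 1.5 times under every setting except 500 bp upstream, which gave 5 genes in replicate 1, 3 in replicate 2 and 3 in both, and a −log10 q of at least 10, which gave 4 in replicate 2 and 4 in both. The 500 bp window and the higher q remove peaks by construction. The Pdr3 count was 0 under all settings. Leaving out a Pdr1 replicate gave 7 to 9 genes with a summit of the remaining one. The median fold of HXT9 and HXT11 minus that of HXT1 to HXT7 was 2.05 in replicate 1 and 1.96 in replicate 2 (HXT9 alone). It became 3.33 with 500 bp and 2.18 with windows ending at the neighbouring gene in replicate 1. In replicate 2 it became 1.76 with 1500 bp or with any part of the peak in the window, 1.88 with the higher q or windows ending at the neighbouring gene, and 1.63 with the whole space. The difference kept its sign in every setting that gave a value, and with 500 bp replicate 2 gave none because HXT9 had no summit. Medians covered only genes with a summit, so HXT11 did not enter in replicate 2. Most settings also left the same peaks in place, so the constant sign is not separate support. The strongest fold of single genes moved by more than the spread between replicates in 6 of 81 recomputations, all of them HXT1. Its fold became 6.22 and 6.20 when the peak beyond 1000 bp was included. Settings in which a gene lost its summit are not among the 81. A peak keeps its fold, so a value could change only where the strongest peak in the window changed. HXT6 and HXT11, with a peak in replicate 1 only, had no spread, and any change would have counted as a move. Ranked by −log10 q, 6 of 16 positions within a list moved by more than the spread between replicates. For HXT6 and HXT11 the median spread of the other genes was used there. No paired analysis was possible because replicate numbers pair the Pdr1 libraries only with IgG libraries, which were not analysed here. Since the lists hold no read counts, an absent peak and a peak below the authors' threshold look alike. The alternatives for the response element were not run.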

Other observations

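Of the 5 isomaltase genes IMA1 to IMA5, IMA2, IMA3, IMA4 and IMA5 had a Pdr1 summit upstream in replicate 1, against 15.5% of all genes. In replicate 2 only IMA4 had one, against 10.2% of all genes. IMA1 had none in any list. These genes were looked at after the peaks at HXT9 and HXT11 had been seen. Each of the 4 stands beside a hexose transporter gene or pseudogene, and its summit is the one described for that transporter, so these are not further peaks.

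A second replicate 1 peak lay upstream of HXT7, 1446 bp from its start, with a fold enrichment of 4.28 (rank 508). It sat in the 3679 bp before HXT6, and replicate 2 listed no peak there.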
